A study of Mus musculus with 4 samples.

Results

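Mitochondrial ribosomal proteins are the protein parts of the ribosome that works inside mitochondria, and all of them are encoded in the nucleus. The genes described here are the rows of the deposited expression table whose symbol is Mrpl or Mrps followed by a number, with pseudogene symbols ending in -ps left out. There were 78 of them among 55401 genes in the table, 49 named for the large subunit (Mrpl) and 29 named for the small subunit (Mrps). All 78 are annotated as protein coding, and all 78 had a mean of at least 1 TPM (an abundance relative to all transcripts of the library, corrected for transcript length), so none was lost to the filter on low values. RNA selected for poly(A) tails was sequenced from the hearts of 4 C57BL/6N mice aged 8 weeks, 2 wild-type and 2 heterozygous. The heterozygous mice (*Ctcf* +/R567W) carry the substitution R567W in CTCF, a zinc finger protein that organises chromatin loops, on a single allele made with CRISPR/Cas9, and this allele is present in every cell of the animal. The labels name no further treatment, and sex and litter were not given in the sources used here. The comparison asks whether the genes of the mitochondrial ribosome differed in level between the genotypes.

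The mitochondrial ribosome translates the few mRNAs of the mitochondrial genome, all of which code for subunits of the oxidative phosphorylation complexes. Its small subunit reads the mRNA in the decoding centre. Its large subunit joins amino acids at the peptidyl transferase centre and passes the growing chain through an exit tunnel towards the inner membrane. The ribosomal RNAs are transcribed inside the organelle, whereas the proteins are made in the cytosol and imported, so a ribosome needs products of both genomes. Heart muscle is densely packed with mitochondria, and inherited defects in several of these genes, *MRPL3* and *MRPL44* among them, cause cardiomyopathy in people.

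Promoter sequence was examined as a feature that the choice by symbol did not use. RefSeq promoter windows of GRCm38.p6, the assembly also called mm10, were matched by symbol for 69 of the 78 members. The members without an entry were *Mrpl4*, *Mrpl13*, *Mrpl15*, *Mrpl19*, *Mrpl38*, *Mrpl54*, *Mrps28*, *Mrps34* and *Mrps35*. Windows of 6 members are printed from 220 bases before to 30 bases after the annotated start, read 5′ to 3′ on the strand of the gene. *Mrpl44* and *Mrpl21* are shown because they had the lowest log2 fold changes of the group, *Mrps21* and *Mrpl33* because they were the most abundant, *Mrps11* because its start lies head to head with that of *Mrpl46*, and *Mrps6* because it had the highest log2 fold change. Capitals mark exact matches, on either strand, to CCGGAAG (the core bound by ETS factors such as GABPA), GCGCA followed by any base and GCGC (NRF1) or AAGATGGCG (YY1), factors known for binding the promoters of nuclear genes for mitochondrial proteins.
Mrpl44 (chr1:79775798-79776047, plus strand): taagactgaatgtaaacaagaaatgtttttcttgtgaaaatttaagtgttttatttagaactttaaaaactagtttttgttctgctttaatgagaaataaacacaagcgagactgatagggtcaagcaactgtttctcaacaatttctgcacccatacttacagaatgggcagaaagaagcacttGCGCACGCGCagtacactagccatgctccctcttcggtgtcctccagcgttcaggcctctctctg
Mrpl21 (chr19:3282822-3283071, plus strand): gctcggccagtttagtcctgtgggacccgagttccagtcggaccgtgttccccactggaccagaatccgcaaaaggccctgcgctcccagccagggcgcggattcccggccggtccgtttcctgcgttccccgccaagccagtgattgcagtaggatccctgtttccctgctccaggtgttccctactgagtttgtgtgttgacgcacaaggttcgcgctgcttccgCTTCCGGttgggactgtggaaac
Mrps21 (chr3:95871485-95871734, minus strand): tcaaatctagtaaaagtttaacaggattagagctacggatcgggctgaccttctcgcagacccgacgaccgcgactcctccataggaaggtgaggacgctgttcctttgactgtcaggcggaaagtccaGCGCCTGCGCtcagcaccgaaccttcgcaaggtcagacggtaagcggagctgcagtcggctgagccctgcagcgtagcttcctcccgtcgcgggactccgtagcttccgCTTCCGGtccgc
Mrpl33 (chr5:31613731-31613980, plus strand): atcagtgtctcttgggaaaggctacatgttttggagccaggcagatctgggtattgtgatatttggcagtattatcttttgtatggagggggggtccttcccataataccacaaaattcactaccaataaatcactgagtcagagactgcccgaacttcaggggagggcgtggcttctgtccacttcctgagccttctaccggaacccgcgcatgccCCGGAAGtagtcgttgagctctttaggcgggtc
Mrps11 (chr7:78782911-78783160, plus strand): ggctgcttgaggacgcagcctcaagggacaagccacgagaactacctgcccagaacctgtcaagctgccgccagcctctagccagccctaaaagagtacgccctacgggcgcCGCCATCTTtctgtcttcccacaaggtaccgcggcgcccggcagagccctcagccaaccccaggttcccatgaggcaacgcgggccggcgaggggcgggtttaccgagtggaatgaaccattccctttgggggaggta
Mrps6 (chr16:92058116-92058365, plus strand): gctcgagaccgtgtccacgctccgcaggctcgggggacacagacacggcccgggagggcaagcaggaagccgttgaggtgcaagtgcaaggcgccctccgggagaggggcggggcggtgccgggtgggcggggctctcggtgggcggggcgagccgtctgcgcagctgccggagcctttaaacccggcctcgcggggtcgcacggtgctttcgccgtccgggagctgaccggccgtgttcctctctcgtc
Among the printed windows, *Mrpl21*, *Mrps21* and *Mrpl33* held the ETS letters starting within 19 bases of the start, *Mrps21* and *Mrpl44* held the NRF1 letters upstream of it, *Mrps11* held the YY1 letters, and *Mrps6* held none of them. No 2 of these matches overlapped.

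The same letters were counted in the full windows of 300 bases, from 250 before to 50 after the start. The ETS letters were present in 26 of the 69 members (37.7%), against 8.86% of all 32851 promoter windows in the table and 21.8% of 7607 coding genes that were also tested here. The NRF1 letters were present in 13 members (18.8%), against 4.6% of all windows and 12.5% of tested coding genes. The YY1 letters were present in 8 members (11.6%), against 1.4% and 4.09%. A member counted when any of its windows matched, so the share of single windows is not a like measure. Over all 16785 coding genes, counted by gene like the members, the shares were 13.2% (ETS), 7.41% (NRF1) and 2.22% (YY1). The shares of members lay above each of these backgrounds for the 3 motifs. Letters of a CTCF core (CCA, any 2 bases, AG, any 2 bases and GGC) were found in 2 members (2.9%, against 2.43% and 3.54%), and TATAAA in 5 members (7.25%, against 13.6% and 8.78%). The longer motif of ZNF143 (ACTACAA followed directly by TTCC) was in none of the 69, and in 0.881% of tested coding genes. Members with and without the ETS letters had median log2 fold changes between genotypes of -0.12 and -0.19, those with and without the NRF1 letters -0.16 and -0.19, and those with and without the YY1 letters -0.17 in both cases. A match describes letters in a window and says nothing of binding in these hearts.

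**Figure D1:**
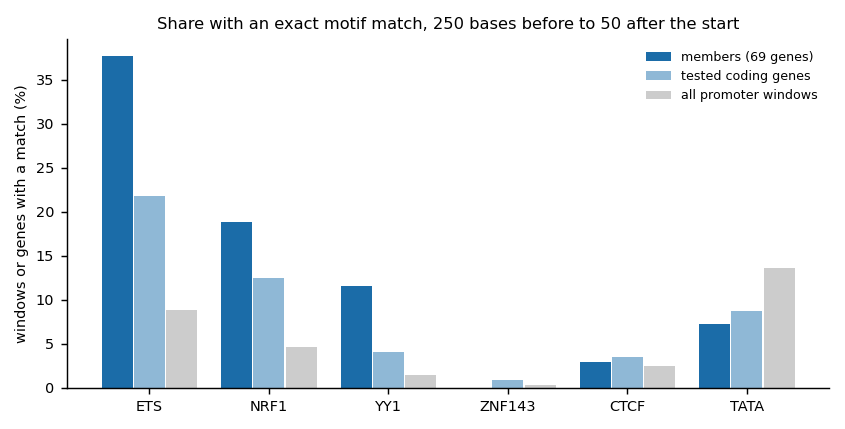
The bars give the percentage with at least 1 exact match to each motif, on either strand, among the 69 members with a promoter entry, among 7607 tested coding genes and among 32851 promoter windows. ETS letters stand at 37.7% of members, 21.8% of tested coding genes and 8.86% of windows, while the CTCF letters stand between 2.43% and 3.54% in all 3 sets.

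TPM sum to the same total in every library and keep no read depth, so the depth behind a value is unknown and no counting interval is given. Genes of the mitochondrial genome took 61.1% to 68.6% of the TPM, and their nuclear copies made up 14.1% and 14.9% of wild-type libraries against 17.2% and 19.8% of heterozygous libraries, always giving replicate 1 before replicate 2. Each library was therefore divided by a median-of-ratios factor (1.08 and 1.27 in wild-type, 0.821 and 0.910 in heterozygous hearts), and values after that step are called scaled TPM. All 10 cardiomyocyte markers were present, and of 6 genes on the skeletal muscle list *Myh1*, *Myh2* and *Myh4* were listed at 0 in all 4 hearts while *Ckm* and *Acta1*, which heart muscle also expresses, and *Mylpf* were present (list sums of 379 to 478 scaled TPM). *Ctcf* stood at 6.15 and 5.99 scaled TPM in the wild-type pair against 7.48 and 5.71 in the heterozygous pair, a level that cannot check the label of a single-base substitution. Replicate numbers name separate libraries, and p-values measure the spread between these libraries only. In whole heart RNA, fewer cells of a type and less RNA per cell cannot be told apart.

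The 78 genes were expressed over a wide range. Mean levels over the 4 hearts ran from 1.10 to 265 scaled TPM, and the median member stood at 15.1 scaled TPM in the wild-type pair against 15.2 in heterozygous hearts. *Mrps21*, the homologue of bacterial S21, was the most abundant member in every heart, at 283 and 255 scaled TPM in the wild-type pair against 229 and 293 in the heterozygous pair. On its own it made up 13.9% to 15.5% of the summed TPM of the group, and the genotypes overlapped. *Mrpl33*, a small homologue of bacterial L33, came next with 139 and 139 scaled TPM in the wild-type pair against 96.6 and 116 in the heterozygous pair. *Mrpl30* (86.6 and 73.9, then 68.0 and 85.4 scaled TPM) and *Mrpl42*, a protein found only in mitochondrial ribosomes (84.7 and 73.9, then 63.2 and 72.8), followed. In every heart 5 members held 32.3% to 34.4% of the group's TPM. As a share of the TPM outside mitochondrial genes and their nuclear copies, the group made up 0.973% and 0.971% in wild-type and 0.898% and 0.977% in heterozygous hearts. The low share was that of heterozygous heart 1, and the share in heterozygous heart 2 was above both wild-type hearts.

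No mitochondrial ribosomal protein gene was called between the genotypes. With calls made at an adjusted p below 0.05 together with a fold change above 1.5, limma with Benjamini-Hochberg adjustment called 0 of 78 members and 3 of 10036 genes tested (0.0299%). The smallest adjusted p of a member was 0.261, for *Mrpl44*. At an unadjusted p under 0.05, limma gave 12 members lower in heterozygous hearts (15.4%, against 6.08% of all tested genes) and 0 members higher (against 6.22%). With 2 hearts per genotype an exact permutation test of a single gene cannot give a two-sided p below 0.333.

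Most members were nevertheless lower on average in the heterozygous hearts. The log2 fold change, on the log2(scaled TPM + 1) scale that understates changes of low genes, was below 0 for 58 of 78 members (74.4%, against 51.6% of all tested genes). Its median was -0.17 over the members and -0.011 over all tested genes. By subunit it was below 0 for 40 of 49 *Mrpl* genes, with a median of -0.19, and for 18 of 29 *Mrps* genes, with a median of -0.094. The genotypes did not overlap, with both heterozygous hearts lower, for 32 members (41%, against 24% of all tested genes), 22 of them *Mrpl* and 10 *Mrps*. They did not overlap in the other direction for 6 members (7.69%, against 23%). On this scale a fold change over 1.5 downwards was seen for 2 members (2.56%, against 2.33%), and all other differences were smaller. Without the scaling step all 78 members were below 0 with a median of -0.56, the median of all tested genes itself being -0.35. On those unscaled values both heterozygous hearts were below both wild-type hearts for 66 members (84.6%, against 67.8%) and above them for 0 (against 2.32%).

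**Figure D2:**
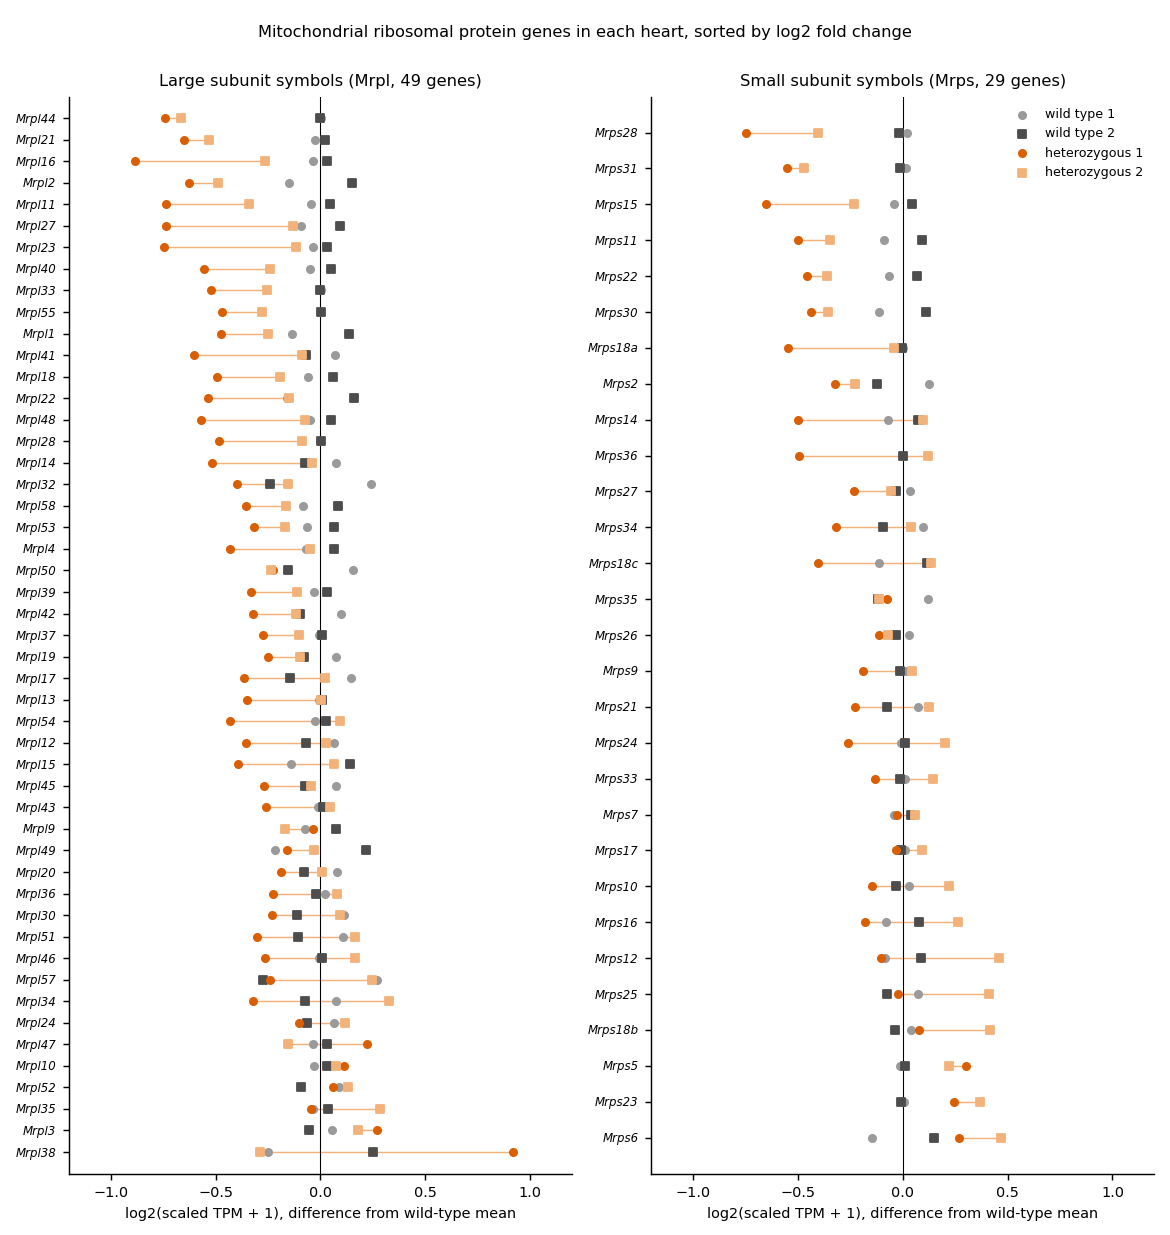
Each row is a member, sorted by log2 fold change with the lowest at the top, and each point is a heart (grey, wild type; orange, heterozygous) as its difference in log2(scaled TPM + 1) from the wild-type mean. Orange lines join the heterozygous hearts, and heart 1 lies to the left of heart 2 in 70 of the 78 rows.

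The size of the shift differed between the heterozygous hearts. Measured from the wild-type mean, the median member was at -0.32 on the log2 scale in heterozygous heart 1, where 69 of 78 members were lower. Of all 10036 tested genes, 5023 were lower in that heart. In heterozygous heart 2 the median member was at -0.045, with 42 of 78 lower, near the share of all tested genes (5204 of 10036). Both hearts were below the wild-type mean for 40 members and both were above it for 7, against 3414 and 3219 of the 10036 genes. Between the heterozygous hearts, 70 of 78 members were higher in heart 2, by a median of 0.29, whereas the median difference between the wild-type hearts was 0.0090. Over all tested genes the median difference between the heterozygous hearts was 0.0025. Small subunit genes had medians of -0.23 in heterozygous heart 1 and 0.091 in heart 2, and large subunit genes -0.35 and -0.090. Without heterozygous heart 1 the median of the group was -0.049, with 43 members below 0, and without heterozygous heart 2 it was -0.32, with 69 below 0. At an unadjusted p under 0.05, the fit without heart 1 gave 5 members lower (6.41%, against 6.99% of all tested genes) and 5 higher (6.41%, against 8.09%), shares near the background. The fit without heart 2 gave 29 members lower (37.2%, against 12.6%) and 1 higher (1.28%, against 9.59%), and limma called 0 members in either fit. Erythroid markers also set the heterozygous hearts apart, with summed levels of 962 scaled TPM in heart 1 and 2104 in heart 2 over 5 genes, against 934 and 981 in wild-type hearts. Atrial markers (4 genes) summed to 810 and 2340 in wild-type and 1910 and 3256 in heterozygous hearts. Cardiomyocyte markers (10 genes) were lowest in heterozygous heart 1, at 22059 scaled TPM against 26071 to 27863 in the other hearts. Mural (54.1 against 69.3 to 77.0, 6 genes) and macrophage markers (29.8 against 40.1 to 43.8, 6 genes) were also lowest in that heart, and endothelial markers (6 genes) were higher in both heterozygous hearts, at 278 and 319 against 249 and 247. Fibroblast markers (6 genes) were at 56.7 and 79.8 in wild-type hearts, then 53.3 and 56.7. The part of each of these in the difference was not tested.

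**Figure D3:**
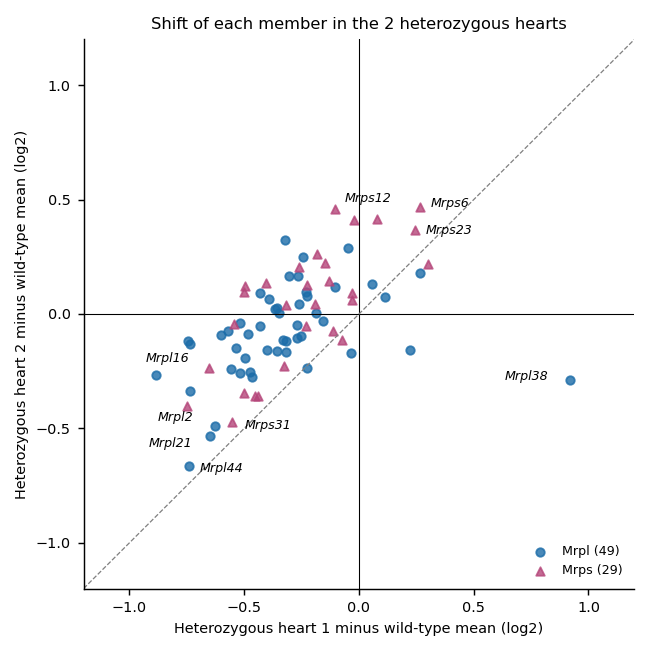
Each point is a member (circles, Mrpl; triangles, Mrps), placed by its log2 difference from the wild-type mean in heterozygous heart 1 (x) and heart 2 (y), and the dashed line marks equal shifts. Most points lie above the line and left of 0, *Mrpl44* and *Mrpl21* lie near the line with shifts in both hearts, and *Mrpl38* lies far to the right.

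Among large subunit proteins, the lowest fold change was that of *Mrpl44*, whose product has a ribonuclease III-like fold and sits near the tunnel exit. Its level was 6.64 and 6.63 scaled TPM in the wild-type pair against 3.57 and 3.81 in the heterozygous pair. Both heterozygous hearts were far below both wild-type hearts, and the hearts of each genotype lay close together. The log2 fold change was -0.70 with a standard error of 0.13, an interval of -1.02 to -0.38 and a limma adjusted p of 0.261. The interval was not adjusted for the number of genes or for picking the lowest member of the group. The gene (chr1:79776018-79781445, plus strand) shared no long stretch of sequence with another transcript, and its promoter window, printed above, held the NRF1 letters. *Mrpl21*, the homologue of bacterial L21, showed a similar pattern with 12.0 and 12.4 scaled TPM in the wild-type pair against 7.41 and 8.13 in the heterozygous pair (log2 fold change -0.59, limma adjusted p = 0.311). Its transcript is 97% identical over 594 bases to *D9Wsu149*, a pseudogene copy, so reads may be split between them. The copy was listed at 0 and 0.17 scaled TPM in the wild-type pair and at 0 and 0 in the heterozygous pair.

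Proteins of the large subunit core followed no single pattern. *Mrpl16*, whose bacterial homologue helps to position the incoming tRNA, stood at 12.8 and 13.5 scaled TPM in the wild-type pair against 6.68 and 10.8 in the heterozygous pair. *Mrpl27* stood at 13.1 and 15.0, then 8.02 and 12.7. *Mrpl2*, the homologue of a bacterial protein needed for peptide bond formation, stood at 20.2 and 25.2, then 14.3 and 15.8. The genotypes did not overlap for any of the 3, and their limma adjusted p-values were 0.383, 0.459 and 0.340. Both heterozygous hearts were below both wild-type hearts for 24% of all tested genes. *Mrpl16* and *Mrpl2* were also among the members named for low fold changes. Measured from the wild-type mean on the log2 scale, heterozygous hearts 1 and 2 were at -0.88 and -0.27 for *Mrpl16* and -0.74 and -0.13 for *Mrpl27*, but closer at -0.63 and -0.49 for *Mrpl2*. *Mrpl3*, a further core protein, went the other way with 33.9 and 31.4 scaled TPM in the wild-type pair against 39.5 and 37.0 in the heterozygous pair (log2 fold change 0.22, or -0.20 on TPM as deposited and -0.096 with mitochondrial genes removed). The median of all tested genes was -0.35 on TPM as deposited and -0.29 with mitochondrial genes removed.

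The stalk and its base recruit the translation factors. *Mrpl11*, at the base, was at 9.88 and 10.6 scaled TPM in the wild-type pair against 5.73 and 7.87 in the heterozygous pair (log2 fold change -0.54, limma adjusted p = 0.343). *Mrpl12* and *Mrpl10*, which build the stalk, did not share this difference, with log2 fold changes of -0.17 (adjusted p = 0.733) and 0.093 (adjusted p = 0.803). At the rim of the exit tunnel, *Mrpl23* was at 29.1 and 30.5 scaled TPM in the wild-type pair against 17.4 and 27.4 in the heterozygous pair. Its pseudogene copy *Mrpl23-ps1*, identical over 540 bases, was listed at 6.7 and 7.2, then 5.6 and 4.6. The other tunnel proteins *Mrpl22*, *Mrpl45*, which tethers the ribosome to the inner membrane, and *Mrpl24* had log2 fold changes of -0.34, -0.16 and 0.0065, and their genotypes overlapped.

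The central protuberance is the crown of the large subunit. Of its proteins, *Mrpl40* stood at 4.80 and 5.22 scaled TPM in the wild-type pair against 3.08 and 4.09 in the heterozygous pair, and *Mrpl48* at 7.12 and 7.68, then 4.65 and 6.97. Also in the large subunit, *Mrps30*, which carries a small subunit symbol, stood at 2.06 and 2.57, then 1.44 and 1.58. None of the 3 overlapped between the genotypes, a separation seen with lower heterozygous hearts for 24% of all tested genes. *Mrpl46* overlapped, at 6.07 and 6.14, then 4.91 and 6.98. *Mrpl38* had the widest spread of the group, with 9.63 and 14.0 scaled TPM in the wild-type pair against 22.9 and 9.36 in the heterozygous pair. Its mean log2 fold change of 0.32 rested on heterozygous heart 1 and was -0.29 without that heart.

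Among small subunit proteins the lowest was *Mrps28*, the counterpart of bacterial S1, with 15.0 and 14.6 scaled TPM in the wild-type pair against 8.38 and 10.9 in the heterozygous pair (log2 fold change -0.58 ± 0.17 SE, limma adjusted p = 0.336). *Mrps31*, found only in mitochondrial ribosomes, stood at 4.01 and 3.92, then 2.39 and 2.58 (log2 fold change -0.51 ± 0.13 SE, limma adjusted p = 0.322). For *Mrps31* the hearts of each genotype lay close together, as for *Mrpl44*. *Mrps15* was at 13.1 and 13.9, then 8.20 and 11.3, and *Mrps22*, another mitochondria-specific protein whose human gene is a known disease gene, at 3.05 and 3.45, then 2.10 and 2.31. *Mrps2*, the counterpart of bacterial S2, was at 4.16 and 3.35, then 2.78 and 3.04. All of these were lower in both heterozygous hearts than in both wild-type hearts, with limma adjusted p-values of at least 0.322. Such a separation was seen for 10 of 29 *Mrps* genes (34.5%), against 24% of all tested genes. *Mrps28*, *Mrps31* and *Mrps15* had been named for their low fold changes, which favours it.

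*Mrps12*, of the decoding centre, stood at 13.6 and 15.5 scaled TPM in the wild-type pair against 13.5 and 20.3 in the heterozygous pair, and its genotypes overlapped. *Mrps24*, at the entry of the mRNA channel, stood at 26.1 and 26.5, then 21.7 and 30.4, on both sides of the wild-type hearts. *Mrps5*, its neighbour at the entry, was higher in both heterozygous hearts, at 42.8 and 40.3 against 34.2 and 34.8 (log2 fold change 0.26, limma adjusted p = 0.521), with a log2 fold change of -0.17 on TPM as deposited and -0.059 with mitochondrial genes removed. The medians of all tested genes on those scales were -0.35 and -0.29. *Mrps7* and *Mrps16*, bacterial-type proteins of the head and body, had log2 fold changes of 0.015 and 0.040 with the main scaling. *Mrps34* and *Mrps35*, found only in mitochondrial ribosomes, had -0.14 and -0.094.

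The highest fold changes of the group were those of *Mrps6*, *Mrpl38*, *Mrps23*, *Mrps5* and *Mrps18b*. *Mrps6*, the homologue of bacterial S6, stood at 10.0 and 12.6 scaled TPM in the wild-type pair against 13.7 and 15.9 in the heterozygous pair (log2 fold change 0.37 ± 0.18 SE, limma adjusted p = 0.433). *Mrps23* stood at 32.5 and 32.2, then 38.5 and 42.0 (0.31, adjusted p = 0.474), and *Mrps18b* at 29.9 and 28.3, then 30.8 and 39.2 (0.25, adjusted p = 0.584). For these 3 both heterozygous hearts were above both wild-type hearts, as for 23% of all tested genes. On TPM as deposited the log2 fold changes were -0.040, -0.12 and -0.18, where the median of all tested genes was -0.35. With mitochondrial genes removed, *Mrps23* and *Mrps18b* were at -0.012 and -0.070, and the median of all tested genes at -0.29. All of these values were therefore below 0 but above the median gene on the same scale. *Mrps36*, which has a small subunit symbol but is known as a part of the 2-oxoglutarate dehydrogenase complex, stood at 37.1 and 37.3, then 26.1 and 40.6.

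**Figure D4:**
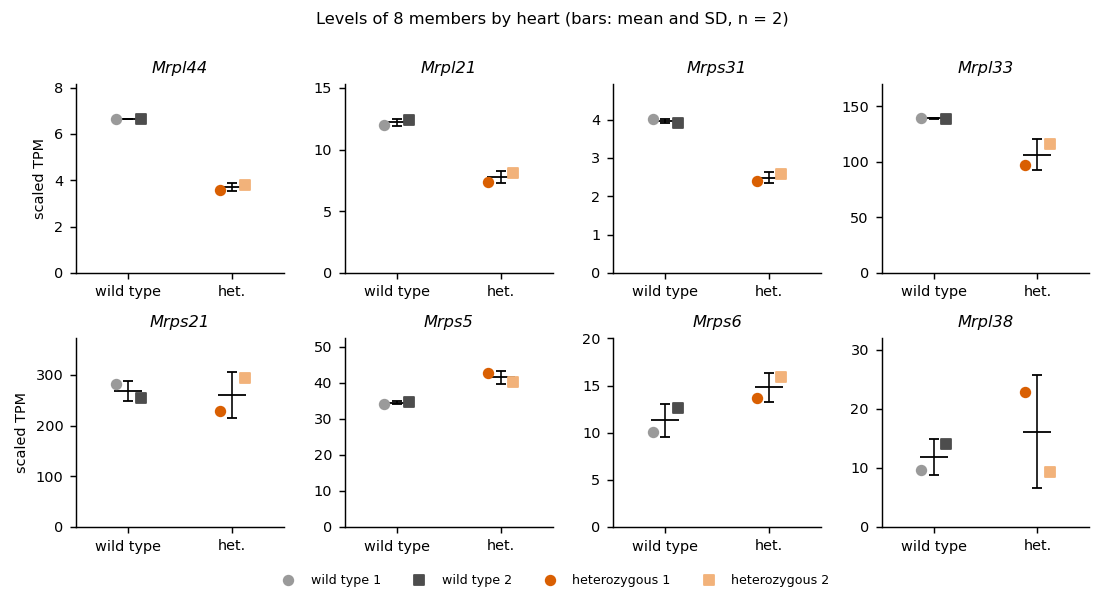
Points are the scaled TPM of 8 members in each heart, with circles for replicate 1 and squares for replicate 2, and black bars are the mean and SD of the 2 hearts of a genotype on axes that start at 0. *Mrpl44*, *Mrpl21*, *Mrps31* and *Mrpl33* are lower in both heterozygous hearts, *Mrps5* and *Mrps6* are higher in both, and *Mrps21* and *Mrpl38* lie on both sides of the wild-type hearts.

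The balance of the subunits within a heart is not changed when all values of a library are divided by a single factor. It was not computed after quantile normalization or the GC content and length correction, which move genes of a library by different amounts. The summed TPM of *Mrpl* genes divided by that of *Mrps* genes was 1.35 and 1.37 in wild-type and 1.22 and 1.19 in heterozygous hearts, or 1.36 ± 0.011 and 1.21 ± 0.020 (SD, n = 2 each). The genotypes did not overlap in this ratio, but it was not tested. The other choices of genes below reuse the same hearts and mostly the same genes, so they are not separate evidence. With genes placed by the structure of the ribosome (*Mrps30* and *Mrps18a* in the large subunit, *Mrps36* left out) the ratio was 1.49 and 1.51, then 1.32 and 1.31. Without the most abundant gene of each subunit, *Mrpl33* and *Mrps21*, it was 1.81 and 1.77, then 1.61 and 1.60. The difference between the mean log2 TPM of *Mrpl* and *Mrps* genes, in which each gene counts equally, was -0.18 and -0.19 in wild-type and -0.29 and -0.30 in heterozygous hearts. The difference between their median log2 TPM was -0.14 and -0.090, then -0.20 and -0.50, lower in both heterozygous hearts but far apart between them.

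The equal-weight difference depended on which genes were taken. Of the 78 members, 32 share at least 200 bases at 95% identity or more with another transcript, a pseudogene copy or an overlapping gene, and 46 do not. Of the members named here, *Mrpl21*, *Mrpl22*, *Mrpl23*, *Mrpl27*, *Mrpl30*, *Mrpl42*, *Mrpl48*, *Mrps5*, *Mrps16*, *Mrps18b*, *Mrps21* and *Mrps36* have such a pseudogene copy, and *Mrpl3*, *Mrpl10*, *Mrpl24*, *Mrps6*, *Mrps24*, *Mrps30* and *Mrps34* overlap another gene, so their levels are less certain. Over the 46 (31 *Mrpl* and 15 *Mrps*) the difference in mean log2 TPM was 0.005 and 0.029 in wild-type and -0.001 and 0.015 in heterozygous hearts, so the genotypes overlapped. The difference in median log2 TPM overlapped as well, at -0.21 and -0.16, then -0.11 and -0.36. The ratio of sums over the same 46 was 2.46 and 2.49, then 2.19 and 2.29, and did not overlap. The 46 had a median log2 fold change of -0.20 and the 32 had -0.10. The part of reads shared with copies in these values was not tested.

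**Figure D5:**
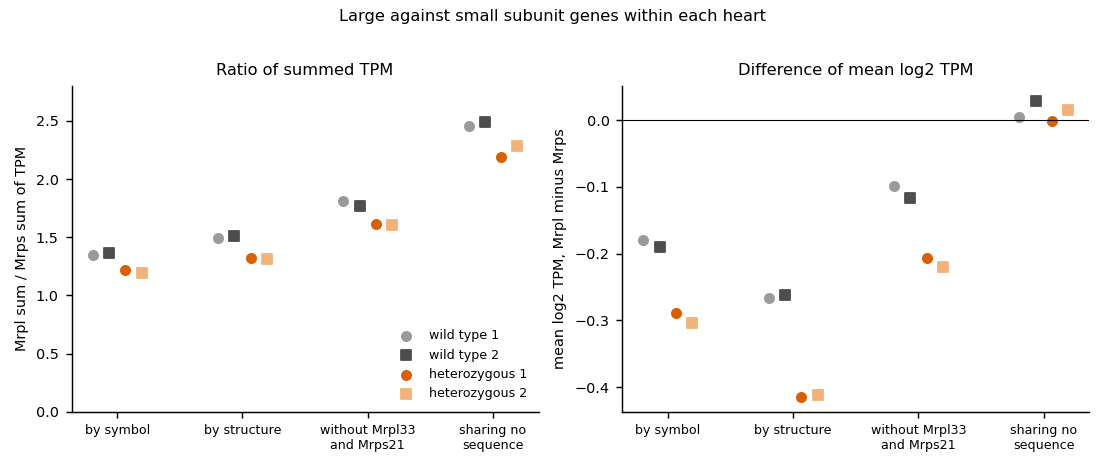
For 4 choices of genes, points give each heart's summed TPM of large over small subunit genes (left) and the difference of their mean log2 TPM (right), with grey for wild-type and orange for heterozygous hearts. On the left the heterozygous hearts lie below the wild-type hearts for all 4 choices, and on the right they overlap for genes that share no sequence.

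Within the group, low members were shifted more than abundant ones. The 14 members with a mean under 5 scaled TPM had a median log2 fold change of -0.25, the 35 members from 5 to 20 had -0.16, and the 29 members at 20 or more had -0.094. Of the 12 members with an unadjusted p under 0.05 by limma, 5 came from the lowest class (35.7% of it), 7 from the middle class (20%) and 0 from the highest class. The share of all tested genes was 6.08%, but it covers every level and is no match for a single class. Taken over both subunits, the medians by evolutionary origin lay closer together. The 48 members with a bacterial homologue had a median of -0.17 and the 29 proteins found only in mitochondria had -0.16. In the large subunit as placed by structure these medians were -0.24 (31 genes) and -0.20 (20 genes), and in the small subunit -0.030 (17 genes) and -0.094 (9 genes). Both heterozygous hearts were below both wild-type hearts for 17 of the 48 (35.4%) and 15 of the 29 (51.7%), against 24% of all tested genes. They were above both wild-type hearts for 5 (10.4%) and 1 (3.45%), against 23%. None of these differences between classes was tested.

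Many members start close to a gene on the opposite strand. Starts were counted in either order, so the annotated 5′ ends may also overlap, as they do for *Mrps11* and *Mrpl46*. The 5′ end lay within 1 kb of that of a gene on the opposite strand for 33 of 78 members (42.3%), against 17.1% of 9469 tested coding genes. Members with and without such a partner had median log2 fold changes of -0.14 and -0.17. The 24 partners that were tested and were not members had a median of 0.012. *Mrps11* and *Mrpl46* formed the only pair within the group. *Mrps11*, a platform protein of the small subunit, stood at 5.34 and 6.20 scaled TPM in the wild-type pair against 3.78 and 4.32 in the heterozygous pair (log2 fold change -0.42, limma adjusted p = 0.366), and *Mrpl46* had a log2 fold change of -0.049.

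The wider machinery of mitochondrial translation was read from lists of other genes. Of the 5 mitoribosomal proteins under other symbols (*Dap3*, *Ptcd3*, *Chchd1*, *Aurkaip1* and *Gadd45gip1*), 0 passed an unadjusted p under 0.05, and their median log2 fold change was -0.062. Of 16 translation factors 14 were tested, with a median of -0.14, 1 lower and 1 higher at an unadjusted p under 0.05. Of 27 assembly factors fixed by name 25 were tested, with a median of 0.061, 2 lower and 2 higher. Of 20 aminoacyl-tRNA synthetases and amidotransferase subunits 15 were tested, with a median of 0.0026, 2 lower and 0 higher. At the adjusted threshold limma called 0 genes in each of these lists. The order of these medians depended on heterozygous heart 1, without which the ribosomal proteins were at -0.049, the translation factors at -0.14 and the assembly factors at -0.026.

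Other large gene groups of the same hearts were compared for context. Nuclear genes for oxidative phosphorylation subunits (91 tested) had a median log2 fold change of -0.21, and cytosolic ribosomal proteins (84 tested) had -0.041. Both groups differed between the heterozygous hearts in the same way as the mitochondrial ribosomal proteins, with medians of -0.43 and -0.19 in heart 1 and -0.073 and 0.10 in heart 2. At an unadjusted p under 0.05 by limma, 18 oxidative phosphorylation genes (19.8%) and 1 cytosolic ribosomal protein gene (1.19%) were lower. Beside them stood the 12 mitochondrial ribosomal protein genes (15.4%), against 6.08% of all tested genes. In each group 0 genes were higher, against 6.22% of all tested genes. Heterozygous heart 1 was thus the lower of the pair in all 3 groups.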

How the data were processed

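Poly(A) RNA of 4 hearts was sequenced, and groups follow the genotype in the labels. The authors trimmed reads with Trim Galore, aligned them to mm10 with STAR and quantified genes with RSEM, and the deposited values are TPM per gene. Their DESeq2 test used counts, which were not used here, and strand handling was not given in the sources used here. Each library was scaled by a median-of-ratios factor and moved to log2 with a pseudocount of 1. Genes averaging 1 TPM or more were tested with limma (3.58.1, lmFit and eBayes with trend, two-sided, Benjamini-Hochberg over 10036 genes) in R (4.3.3), after a test on simulated data. Copies were found with BLAST+ (2.17.0) on GENCODE transcripts of mm10, to which 55141 identifiers matched. Named members were the 8 lowest and 5 highest log2 fold changes, the 4 most abundant of each subunit and members of known site. *Mrps11* was named after its values were seen. The members and lists were chosen with earlier results of these data known. Alternatives covered scaling, pseudocount, filter, GC content and length, the replicate block, eBayes settings, thresholds, subunit assignment and each library left out.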

Additional observations from a re-analysis of the deposited data

How the results depend on the processing

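At an adjusted p under 0.05, limma called 0 members under every alternative run. With the threshold relaxed to an adjusted p below 0.1, folds over 1.5 kept, it called 0 members with the main scaling and 19 on TPM as deposited, where 13.2% of all tested genes passed, a combination added after seeing the data. The smallest adjusted p of a member ranged from 0.0891 (*Mrpl2*, TPM as deposited) to 0.712 (*Mrpl44*, without wild-type heart 1). Calls over all tested genes, 3 in the main model, numbered 0 with no filter, 1 with the block and the GC content and length correction together, 2 at a pseudocount of 5, a mean TPM of at least 5, quantile normalization or eBayes without trend, 5 with robust eBayes or without mitochondrial genes and their nuclear copies, 8 without mitochondrial genes, 13 on TPM as deposited, and 7 to 33 with a library left out. Members lower at an unadjusted p under 0.05, 12 in the main model (15.4%, against 6.08% of all tested genes), numbered 45 on TPM as deposited (57.7%, against 33.3%), 48 without mitochondrial genes (61.5%, against 24.7%), 8 at a mean TPM of at least 5 (12.3%, against 7.16%), 5 without wild-type heart 1 (6.41%, against 3.09%), 2 without wild-type heart 2 (2.56%, against 2.6%), 5 without heterozygous heart 1 (6.41%, against 6.99%) and 29 without heterozygous heart 2 (37.2%, against 12.6%). Replicate numbers were shared between genotypes but name different mice. Deviations of same-numbered hearts correlated at 0.101 over genes, 2 pairs do not establish a pairing, and with the replicate block 11 genes and 0 members were called, the median of the members staying at -0.17.

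The median log2 fold change of the members was -0.56 (large -0.59, small -0.50) on TPM as deposited and -0.49 (large -0.51, small -0.41) without mitochondrial genes, where the medians of all tested genes were -0.35 and -0.29. With a library left out it ranged from -0.32 to -0.049 over all members, from -0.35 to -0.094 for large and from -0.23 to 0.088 for small subunit genes, and the positive value was that without heterozygous heart 1. Without mitochondrial genes and their nuclear copies, an alternative chosen after seeing the data, it was -0.11, with all tested genes at 0.049.

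Of 39 named members 20 turned direction, relative to 0, under at least 1 alternative. On TPM as deposited these were *Mrpl24* (-0.42), *Mrps7* (-0.40), *Mrps16* (-0.37), *Mrpl52* (-0.34), *Mrpl10* (-0.30), *Mrps12* (-0.23), *Mrpl3* (-0.20), *Mrps18b* (-0.18), *Mrps5* (-0.17), *Mrps23* (-0.12), *Mrpl38* (-0.093) and *Mrps6* (-0.040). Without mitochondrial genes they were *Mrpl24* (-0.32), *Mrps7* (-0.30), *Mrps16* (-0.28), *Mrpl52* (-0.23), *Mrpl10* (-0.21), *Mrps12* (-0.14), *Mrpl3* (-0.096), *Mrps18b* (-0.070), *Mrps5* (-0.059) and *Mrps23* (-0.012). The medians of all tested genes were -0.35 on TPM as deposited and -0.29 without mitochondrial genes. Below them lay *Mrpl24*, *Mrps7* and *Mrps16* on TPM as deposited, and *Mrpl24* and *Mrps7* without mitochondrial genes. The other members that turned under these settings lay above the median gene. *Mrps21* was at 0.073 with quantile normalization. With the GC content and length correction, alone and with the replicate block, *Mrps21* was at 0.080, *Mrps24* at 0.033 and *Mrpl46* at 0.026. Without mitochondrial genes and copies *Mrpl30* was at 0.0027, *Mrps21* at 0.022, *Mrpl46* at 0.012 and *Mrps24* at 0.041. With a library left out the ranges that crossed 0 were -0.36 to 0.022 for *Mrpl12*, -0.11 to 0.11 for *Mrpl24*, -0.24 to 0.090 for *Mrpl30*, -0.29 to 0.92 for *Mrpl38*, -0.27 to 0.16 for *Mrpl46*, -0.11 to 0.46 for *Mrps12*, -0.19 to 0.26 for *Mrps16*, -0.23 to 0.12 for *Mrps21*, -0.27 to 0.20 for *Mrps24*, -0.32 to 0.037 for *Mrps34*, -0.21 to 0.016 for *Mrps35*, -0.50 to 0.12 for *Mrps36* and -0.034 to 0.056 for *Mrps7*. The cause was not tested. A lone library was assumed to vary like the other group. TPM keep no depth, so counting error behind any value is unknown.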
